A study of Mus musculus with 12 samples.

Results

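Vomeronasal receptor genes lie in large clusters, and H3K9me3 was examined here in 6 windows of the mouse genome that hold such clusters. H3K9me3 is histone H3 trimethylated at lysine 9, a mark of heterochromatin. The Vmn1r windows both lie on chromosome 6, at 56.5 to 58 Mb (proximal) and 89 to 91 Mb (distal). The Vmn2r windows lie at 63.5 to 65 Mb on chromosome 3, 108.5 to 110 Mb on chromosome 5, 84 to 87 Mb on chromosome 7 and 18 to 20.8 Mb on chromosome 17. Every region of the authors' deposited table whose start lies in a window on mm10 was taken, which gave 570 of 68291 regions. The Vmn1r windows held 116 of them and the Vmn2r windows 454. The rule uses positions and no measured value, although the windows were picked with earlier results of these data known.

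The study set Tex19.1-/- (knockout) mouse embryonic stem cells against Tex19.1+/- (heterozygous) cells. The cells of both genotypes derive from E14Tg2a, an embryonic stem cell line of 129/Ola background, and were used at passages 12 to 20. Chromatin immunoprecipitation (IP) with an H3K9me3 antibody and input DNA were sequenced in 3 libraries each per genotype, 12 libraries in all. Groups follow the titles, because the genotype field contradicts the title in 6 of the 12 libraries, and nothing in the labels says how many clones or separate cultures stand behind the 3 libraries of a group. The deposited table compares the genotypes region by region and has 0 columns of single libraries, so neither the level in each library nor replicate error could be given. Nothing in it names the reference genotype, so each log2 fold change is given with its sign as deposited.

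Vomeronasal receptors detect pheromones and other social or predator odours. The Vmn1r genes encode V1R receptors, which signal through the G protein subunit encoded by Gnai2 in apical neurons of the vomeronasal organ, and their coding sequence lies in a single exon. The Vmn2r genes encode V2R receptors, which have a long extracellular domain, signal through the subunit encoded by Gnao1 in basal neurons and are built from several exons over a longer gene. Both families grew by tandem duplication and carry many pseudogenes, and each mature neuron uses a very small part of the repertoire. Embryonic stem cells are not a site of this use, and the table measures the mark, not RNA. TEX19.1, a mammal-specific protein of germ cells and pluripotent cells, is known for its part in restraining retrotransposons, and H3K9me3 is one of the marks that silence such repeats in embryonic stem cells.

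The RefSeq gene table of assembly GRCm38.p6 placed 168 receptor genes in the windows. Of these, 42 were coding Vmn1r genes, 19 were Vmn1r pseudogenes, 53 were coding Vmn2r genes and 54 were Vmn2r pseudogenes. The chromosome 6 windows held 22 coding Vmn1r genes with 6 pseudogenes (proximal) and 15 with 8 (distal), and no Vmn2r gene. Coding Vmn2r genes numbered 7 on chromosome 3, 10 on chromosome 5, 15 on chromosome 7 and 21 on chromosome 17, with 11, 3, 26 and 14 pseudogenes. The labels of the windows held with 1 exception: the chromosome 17 window also contains 5 coding Vmn1r genes and 5 Vmn1r pseudogenes near its distal end, although only 3 of its 165 regions lie within 5 kb of them. The chromosome 7 window also contains 17 olfactory receptor genes.

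Promoters of the receptor genes are shown first because the position of the mark relative to them is one of the results. RefSeq promoter sequence (GRCm38.p6, 250 bases before to 50 after the gene's start) was held for 37 of the 42 coding Vmn1r genes and 50 of the 53 coding Vmn2r genes. Each sequence printed here is 300 bases, 5′ to 3′ on the gene's strand, and comes from the promoter nearest to the mark among those of its window that carry the shared run. The capitals mark the run of 12 bases found in the largest number of receptor promoters of the same window. In Vmn1r7 the run lies after the annotated start, in frame with the ATG there, and may be coding sequence. In Vmn1r48, Vmn2r10 and Vmn2r104 it lies before the start. Vmn1r48 and Vmn2r104 are, within the 6 windows, the promoters of their families nearest to an H3K9me3 region. Vmn1r48 lies at chr6:90036792-90037091, Vmn1r7 at chr6:57025224-57025523, Vmn2r10 at chr5:109006387-109006686 and Vmn2r104 at chr17:20048156-20048455, all on the minus strand. The genes and runs were chosen after the values were seen. In each sequence printed here the letters ATG stand at the annotated start. That start may thus be where coding sequence begins, and where transcription begins is not known from it. All promoter results here refer to the annotated start.
Vmn1r48: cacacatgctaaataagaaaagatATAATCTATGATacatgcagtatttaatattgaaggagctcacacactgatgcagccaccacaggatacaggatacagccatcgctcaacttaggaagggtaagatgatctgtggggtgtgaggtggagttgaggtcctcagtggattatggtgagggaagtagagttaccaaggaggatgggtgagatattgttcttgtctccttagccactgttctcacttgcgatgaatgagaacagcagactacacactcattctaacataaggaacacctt
Vmn1r7: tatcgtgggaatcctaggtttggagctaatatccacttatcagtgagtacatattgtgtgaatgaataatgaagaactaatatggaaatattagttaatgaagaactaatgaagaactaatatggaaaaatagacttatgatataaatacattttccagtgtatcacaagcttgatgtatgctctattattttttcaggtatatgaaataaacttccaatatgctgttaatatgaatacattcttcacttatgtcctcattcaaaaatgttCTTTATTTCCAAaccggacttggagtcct
Vmn2r10: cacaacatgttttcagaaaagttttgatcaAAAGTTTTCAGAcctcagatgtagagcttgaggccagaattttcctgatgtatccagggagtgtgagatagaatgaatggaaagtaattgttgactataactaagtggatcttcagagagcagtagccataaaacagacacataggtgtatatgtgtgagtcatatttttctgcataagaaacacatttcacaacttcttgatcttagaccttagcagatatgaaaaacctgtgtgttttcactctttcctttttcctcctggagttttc
Vmn2r104: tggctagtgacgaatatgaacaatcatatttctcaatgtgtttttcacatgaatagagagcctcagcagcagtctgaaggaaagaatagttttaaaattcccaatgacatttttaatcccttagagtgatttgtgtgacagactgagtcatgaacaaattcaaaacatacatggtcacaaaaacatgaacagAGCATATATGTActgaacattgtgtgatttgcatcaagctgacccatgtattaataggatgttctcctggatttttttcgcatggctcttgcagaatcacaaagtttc

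These sequences are AT-rich and poor in CG pairs. The median receptor promoter held 1 CG pair in the Vmn1r family and 1 in the Vmn2r family, against 7 over all 32851 promoters of the table. Promoters with 2 or fewer CG pairs made up 91.9% of the Vmn1r and 82.0% of the Vmn2r promoters, against 23.3% of all promoters, and median GC content was 33.0% and 36.0%, against 52.7%. The run in capitals was carried by 4 of 14 promoters in the distal chromosome 6 window, 9 of 18 in the proximal one, 9 of 10 on chromosome 5 and 11 of 21 Vmn2r promoters on chromosome 17. Each run was found in 0 receptor promoters of the other windows, while those of chromosome 5 and of the proximal chromosome 6 window also occur in 3 and 7 receptor promoters of other clusters. Among the motifs searched, TAATTA (the same on both strands) was present in 5 of 37 Vmn1r promoters (13.5%) and 10 of 50 Vmn2r promoters (20.0%), against 5.29% of all promoters. TATAAA on either strand was present in 14 of 37 (37.8%) and 8 of 50 (16.0%), against 13.6% of all promoters. The EBF (Olf1) motif, TCCC and GGGA with 2 bases between them, which reads the same on both strands, was in 0 of 37 and 0 of 50, against 0.904% of all promoters. A match is a run of letters and not a site, and shares of AT-rich motifs move with base composition.

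H3K9me3 regions were frequent in these windows. The Vmn1r windows held 33.1 regions per Mb and the Vmn2r windows 51.6, against 25 over the 21 chromosomes. Regions covered 4.57% of the Vmn1r windows and 7.42% of the Vmn2r windows, against 3.02% of the chromosomes. CPM, the authors' read counts scaled to library size and averaged over libraries, summed to 614 per Mb in the Vmn1r windows and 1000 per Mb in the Vmn2r windows, against 396 per Mb of the chromosomes. How reads that match several near-identical gene copies were counted is not given in the sources, so signal at such copies is uncertain. Single regions differed less: median log2 CPM was 3.21 in the Vmn1r windows (95% interval 2.83 to 3.47) and 3.44 in the Vmn2r windows (3.20 to 3.56), against 3.08 over all regions. Median widths were 870.5 bp (684 to 1050) and 877.5 bp (815 to 933), against 773 bp. The intervals of both families overlap for level and for width, and all intervals of medians here treat regions as independent, which neighbours on a chromosome may not be.

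Windows of 1 family differed in density. The proximal chromosome 6 window had the fewest regions, 27.3 per Mb, and the distal one had 37.5. In the Vmn2r windows the density was 35.3 per Mb on chromosome 3, 69.3 on chromosome 5, 44.0 on chromosome 7 and 58.9 on chromosome 17. Over the 2601 bins of 1 Mb that hold at least 1 region, the median was 23 regions and the 95th percentile 58. Bins without a region are left out of these values and of the shares of bins that follow. The chromosome 5 window was denser than 97.4% of bins and the chromosome 17 window denser than 95.3%, while the proximal chromosome 6 window was denser than 63.1%. Densities of the 2 Vmn1r windows lie on both sides of the chromosome 3 value, so the families overlap in density window by window.

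Regions were denser where the receptor genes are. From the first to the last receptor gene of each window, density was 48.7 regions per Mb in the Vmn1r windows, against 19.4 in the rest of the same windows. In the Vmn2r windows it was 57.8 per Mb in the receptor stretch, against 31.9 outside it. In each of the 5 windows with regions outside the stretch, the stretch was denser. The contrast was 73.5 against 23.1 per Mb in the distal chromosome 6 window and 35.5 against 6.97 in the proximal one, where only 3 regions lay outside. It was 47.2 against 19.9 on chromosome 3, 77.1 against 56.6 on chromosome 5 and 50.2 against 27.1 on chromosome 7. On chromosome 17 the receptor genes fill nearly the whole window, and the remaining 0.072 Mb held 0 regions. By signal, CPM per Mb in the stretch and in the rest were 962 and 307 in the Vmn1r windows and 1102 and 675 in the Vmn2r windows. The chromosome 5 window is the exception, with 1275 CPM per Mb in the stretch and 1339 in the rest, and with 9.53% and 8.94% covered. No test was made of these densities, since a window is 1 stretch of 1 genome.

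**Figure D1:**
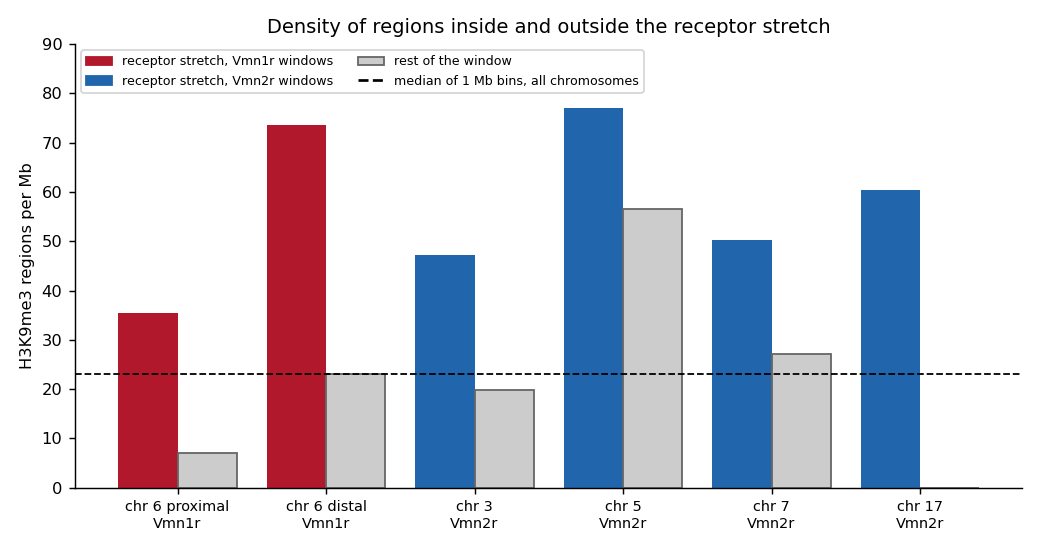
H3K9me3 regions per Mb in each window, from the first to the last receptor gene (coloured bars, red for Vmn1r and blue for Vmn2r windows) and in the rest of the window (grey bars). The dashed line is the median of 1 Mb bins that hold a region, 23 regions, and every coloured bar lies above it. The rest of the chromosome 17 window is 0.072 Mb long and holds 0 regions.

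**Figure D2:**
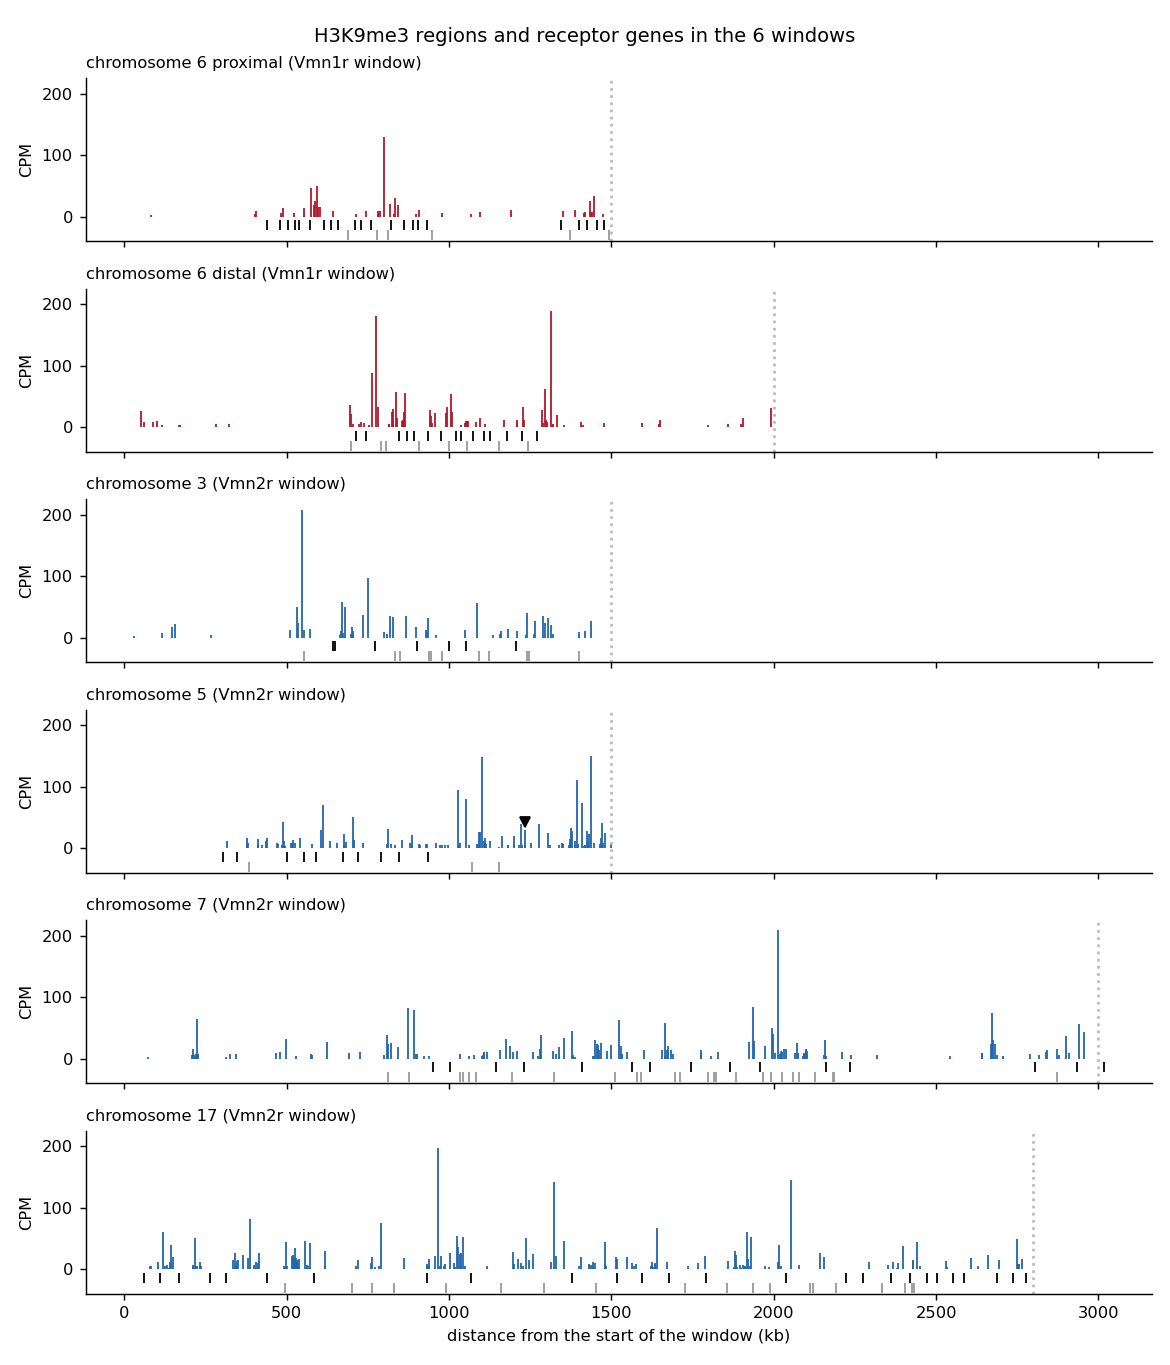
Positions of the 570 regions along the windows, in kb from each window's start, with the height of a line giving the region's CPM. Black ticks below are coding receptor genes, grey ticks receptor pseudogenes, the dotted line is the window's end and the triangle marks the 1 called region, on chromosome 5; a few regions above 100 CPM stand among many below 50.

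Within the clusters, most regions lay between genes. Of the 570 regions, 383 overlapped no gene body, 95 overlapped the body of a receptor gene (4 in the Vmn1r and 91 in the Vmn2r windows) and 92 overlapped another gene only. The 2 families differ in how much of them the mark reached. Of coding genes, 2 of 42 Vmn1r genes (4.76%) and 18 of 53 Vmn2r genes (34.0%) had a region in the body. Gene length differs in the same direction, with a median of 931.5 bp for coding Vmn1r genes and 24737 bp for coding Vmn2r genes, and its part in the counts was not tested. Per base, regions covered 0.781% of coding Vmn1r bodies and 3.82% of coding Vmn2r bodies. Both lie under the coverage of the family's windows, 4.57% and 7.42%, and the chromosomes stand at 3.02%. Within 5 kb of the gene the counts were 14 of 42 and 30 of 53. These Vmn2r counts and the coverage include Vmn2r79, whose 4 regions cover 7578 bp of its body. They start past the end of the chromosome 7 window at 87 Mb, so they are not among the 570. Among pseudogenes, 2 of 19 Vmn1r and 14 of 54 Vmn2r members had a region in the body. Over both families, 86 of 168 receptor genes had no region in the body or within 5 kb.

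Few Vmn1r genes carried the mark. The coding genes were Vmn1r48, whose region of 4.22 CPM covers 418 of its 909 bp in the authors' deposited table, and Vmn1r5, with a region of 6.50 CPM in the same deposited table. The pseudogenes were Vmn1r-ps25, with 21.1 CPM, and Vmn1r-ps29, with 54.4 CPM, in the authors' deposited table. Their log2 fold changes there were -0.29 at Vmn1r48, 0.11 at Vmn1r5, -0.11 at Vmn1r-ps25 and -0.08 at Vmn1r-ps29, all in the authors' deposited table and all uncalled. Regions over coding Vmn2r genes reached higher CPM. The strongest region in the authors' deposited table had 71.1 CPM at Vmn2r79, 60.6 CPM at Vmn2r91, 58.0 CPM at the overlapping genes Vmn2r1 and Vmn2r2, and 56.7 CPM at Vmn2r78. The gene Vmn2r79 runs past the end of the chromosome 7 window at 87 Mb, and its regions start beyond that end, outside the window. Vmn2r1 and Vmn2r2 belong to the small subfamily of V2Rs that is expressed broadly in basal vomeronasal neurons. The fold changes of these regions in the authors' deposited table were -0.0037 at Vmn2r79, -0.18 at Vmn2r91, -0.18 at Vmn2r1 and Vmn2r2 and -0.0080 at Vmn2r78, and none was called. Long annotated pseudogenes held the most regions, 19 in Vmn2r-ps23 (153426 bp) and 14 in Vmn2r-ps11 (211881 bp).

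Receptor promoters, as placed by the annotated gene start, were free of listed regions. An H3K9me3 region overlapped 0 of 37 Vmn1r and 0 of 50 Vmn2r promoters. A count of 0 of 87 allows a share of up to 3.45%, which lies above the 2.73% of all promoters (897 of 32851). A share lower than that of all promoters was thus not detectable with this number of promoters. Receptor promoters of other clusters overlapped a region in 3 of 169 cases for Vmn1r and 1 of 68 for Vmn2r, and olfactory receptor promoters in 19 of 948. In the same windows, 8 of 109 promoters of other genes overlapped a region (7.34%), at Gm8493, Gm15446, 4933427D06Rik, Uroc1, Gm29986 and Gm41538. Uroc1 encodes urocanase, an enzyme of histidine breakdown.

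By median distance, receptor promoters lay nearer to the mark than promoters in general, as did similar promoters. The median distance to the nearest region was 9839 bp for Vmn1r and 10186.5 bp for Vmn2r promoters, against 24160 bp for all promoters. It was 13341 bp for Vmn1r and 13606 bp for Vmn2r promoters of other clusters, 12062 bp for olfactory receptor promoters and 14280 bp for promoters of other genes in the same windows. Within 5 kb of a region lay 27.0% of Vmn1r and 16.0% of Vmn2r promoters, against 15.9% of all promoters. Both families together stood at 20.7%, against 34.9% of the promoters of other genes in the windows. Within 10 kb of a region lay 54.1% of Vmn1r and 48.0% of Vmn2r promoters, against 28.0% of all promoters. Within 2 kb the shares were 10.8% and 8.0%, against 8.10%, so the difference from all promoters appeared at larger distances. The nearest pairs include Vmn1r48, whose 418-bp region lies 421 bp from its promoter inside the gene, and Vmn2r104. The region 448 bp upstream of the Vmn2r104 promoter is 9673 bp wide and had 146 CPM and a log2 fold change of -0.10 (derived SE 0.08, FDR 1) in the authors' deposited table.

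**Figure D3:**
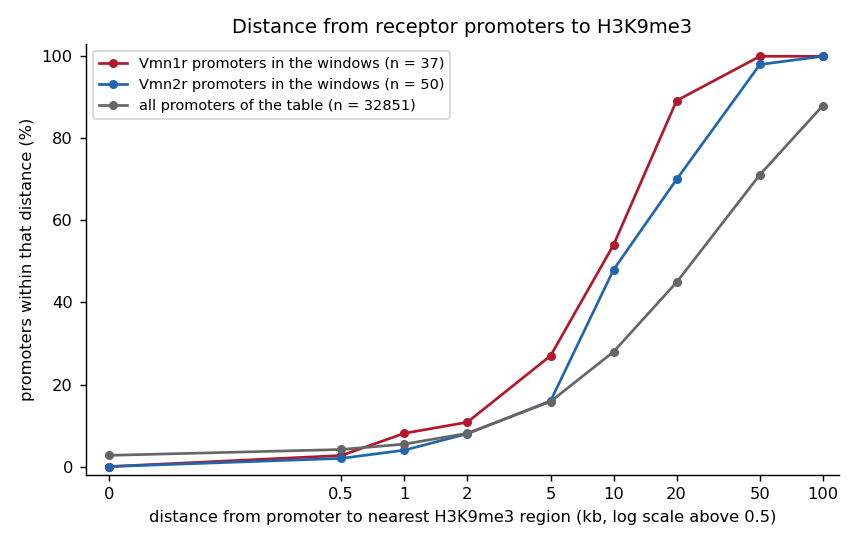
Share of promoters (%) whose nearest H3K9me3 region lies within a given distance (kb, log scale above 0.5 kb), for Vmn1r (red, n = 37) and Vmn2r (blue, n = 50) promoters of the windows and for all 32851 promoters (grey). The curves lie close together up to 2 kb, and at 20 kb they stand at 89.2% for Vmn1r, 70.0% for Vmn2r and 44.9% for all promoters.

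Between the genotypes, values in the clusters lay close to 0. The median log2 fold change was -0.0018 in the Vmn1r windows (95% interval -0.10 to 0.05) and -0.04 in the Vmn2r windows (-0.07 to -0.00025), against -0.0058 over all regions. Positive values made up 58 of 116 regions in the Vmn1r windows (Wilson 95% interval 41.0 to 59.0%) and 205 of 454 in the Vmn2r windows (45.2%, 40.6 to 49.8), against 49.2% of all regions. Within 0.5 of 0 lay 83.6% of the Vmn1r and 90.1% of the Vmn2r regions, against 82.9% of all regions. The intervals of the families overlap, and a difference between them was not tested. In bulk cells, a lower value may mean fewer cells with the mark or less of it per cell, and these cannot be told apart. Medians per window were 0.03 and -0.05 on chromosome 6 (proximal and distal), and -0.04 on chromosome 3, -0.06 on chromosome 5, -0.0042 on chromosome 7 and -0.06 on chromosome 17. The medians of the whole chromosomes were -0.01 for chromosome 6, -0.01 for chromosome 3, -0.03 for chromosome 5, -0.05 for chromosome 7 and -0.02 for chromosome 17.

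A region is called where the deposited FDR, the p-value adjusted over all regions, is below 0.05. This held for 0 of 116 regions in the Vmn1r windows and 1 of 454 in the Vmn2r windows, against 0.281% of all regions. An unadjusted p below 0.05 was given for 4 Vmn1r and 12 Vmn2r regions, 2.81% of the 570, against 4.74% of all regions. For p below 0.01 the counts were 2 and 5, which is 1.23% of the 570, against 1.56% of all regions. The shares lie under those of the whole table, which include chromosome 11, with 15.6% below 0.05 and 6.56% below 0.01. On the windows' own chromosomes, 3.43% (chromosome 5) to 4.70% (chromosome 17) of regions had p below 0.05. For p below 0.01 the range was 0.75% (chromosome 5) to 1.47% (chromosome 17), and the windows' share lies inside it. Calls numbered 4 of 4390 regions on chromosome 3, 4 of 4400 on 5, 5 of 3928 on 6, 7 of 4231 on 7 and 8 of 2850 on 17. Of the 16 regions below 0.05, 6 were positive and 10 negative.

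The called region lies on chromosome 5 (109731615 to 109734471), 168 bp past the end of the pseudogene Vmn2r-ps23 and just outside the receptor stretch. In the authors' deposited table it had 29.1 CPM over 2856 bp and a log2 fold change of -0.87 (derived SE 0.18, FDR 0.00218), a 1.82-fold difference. The SE was derived from the deposited p-value and carries the assumptions of the authors' test. Neighbours of the called region had values near 0 or wide errors. The SE of each neighbour is the median error of regions of like log2 CPM, not one from its own p-value. In the authors' deposited table a region of 40.0 CPM that ends 7248 bp before it had -0.10 (derived SE 0.16). Closer to it, a weak region 4986 bp before had 0.23 (derived SE 0.54) and a weak one 697 bp after, in 4930522L14Rik, had 0.10 (derived SE 0.43) in the authors' deposited table. None of these neighbours was called.

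Other regions with p below 0.01 were uncalled. In the Vmn1r windows, the strongest region of the proximal window (chromosome 6, 57294935 to 57304894, 8046 bp from Vmn1r-ps10) had 130 CPM and -0.22 (derived SE 0.08, FDR 0.517) in the authors' deposited table. In the distal window, the region at 89993364 to 89995884 of chromosome 6 (1729 bp from Vmn1r-ps29) had 32.9 CPM and -0.49 (derived SE 0.17, FDR 0.421) in the authors' deposited table. Both Vmn1r values were negative. In the Vmn2r windows the values had both signs. A region on chromosome 3 (64233057 to 64236433, in Gm34462) had 0.45 (derived SE 0.16, FDR 0.485) in the authors' deposited table. On chromosome 17, the region at 18615265 to 18618362, 17108 bp from Vmn2r96, had 0.47 (derived SE 0.17, FDR 0.534) in the authors' deposited table. On the same chromosome, the region at 19021402 to 19025151, 28342 bp from Vmn2r98, had -0.34 (derived SE 0.13, FDR 0.542) in the authors' deposited table. The region at 19915370 to 19919239, 17974 bp from Vmn2r-ps124, had -0.35 (derived SE 0.12, FDR 0.410) in the authors' deposited table. The regions closest to these genes, 2976 bp from Vmn2r98 and 4397 bp from Vmn2r-ps124, had -0.07 and -0.01 in the authors' deposited table.

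What a single region could show depended on its signal. At a log2 CPM of 2 to 3, which held 41 Vmn1r and 149 Vmn2r regions, the smallest called change in the whole table was 1.51. It was 0.997 at 3 to 4, 0.680 at 4 to 5 and 0.484 at 5 to 6, and no region below 2 was called. The largest changes lay at weak regions: the 6 of at least 1 in size had 2.65 to 5.00 CPM in the authors' deposited table. One of them, at -1.22 with a derived SE of 0.58 in the authors' deposited table, overlaps the pseudogene Vmn2r-ps13. Changes of the size of the medians above were not detectable at any single weak region.

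**Figure D4:**
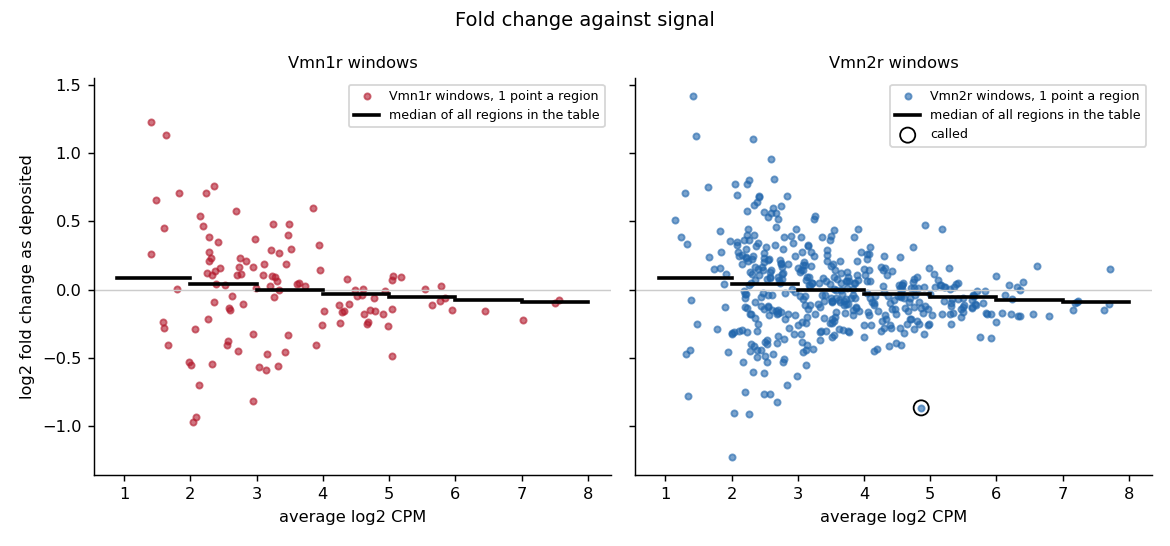
Log2 fold change as deposited against average log2 CPM, 1 point for each region, for the Vmn1r windows (left, 116 regions) and the Vmn2r windows (right, 454 regions). Black bars are medians of all regions of the table per class of log2 CPM; the spread narrows with signal, and the circled point is the called region at -0.87.

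The sign of the change moved with signal. Among regions of log2 CPM 4 or more, 7 of 35 in the Vmn1r windows and 51 of 158 in the Vmn2r windows were positive, 30.1% of the 193, against 40.2% of all 18037 such regions. That share includes chromosome 11, where 811 of 876 strong regions were positive. Their median log2 fold change was -0.11 in the Vmn1r windows (95% interval -0.15 to -0.06) and -0.08 in the Vmn2r windows (-0.11 to -0.05), against -0.05 over all such regions. Weaker regions had medians of 0.09 and 0.03, against 0.02. Most of these strong regions were negative in both Vmn1r windows, with 1 of 11 positive in the proximal and 6 of 24 in the distal one. In the Vmn2r windows strong regions were positive in 10 of 23 cases on chromosome 3, 9 of 31 on chromosome 5, 17 of 43 on chromosome 7 and 15 of 61 on chromosome 17. On the whole chromosomes, 423 of 1121 strong regions were positive on chromosome 6, 452 of 1234 on chromosome 3, 403 of 1145 on chromosome 5, 344 of 1106 on chromosome 7 and 280 of 778 on chromosome 17. The shares in the chromosome 3 and 7 windows lie above those of their chromosomes and the shares in the other windows below. The same trend with signal runs through the whole table, so it is not particular to receptor clusters. Relative to regions of like log2 CPM, the mean weighted by precision was -0.04 in the Vmn1r and -0.02 in the Vmn2r windows. It was 0.02 over all regions, which include chromosome 11 at 0.295. Over the windows' own chromosomes it was -0.0049 on chromosome 6, -7.9e-05 on 3, -0.018 on 5, -0.033 on 7 and 0.0032 on 17.

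**Figure D5:**
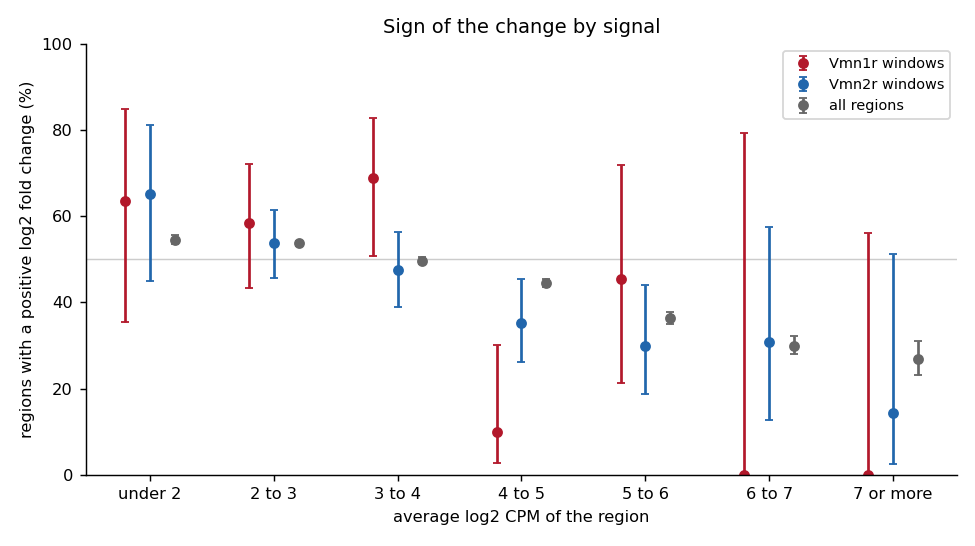
Share of regions (%) with a positive log2 fold change by class of average log2 CPM, for the Vmn1r windows (red), the Vmn2r windows (blue) and all regions (grey), with Wilson 95% intervals. The grey share falls to 26.9% in the strongest class, against 54.6% in the weakest; the Vmn1r share has no steady course, at 69.0% in the class 3 to 4, 10.0% at 4 to 5 (2 of 20 regions) and 45.5% at 5 to 6 (5 of 11), against 49.7%, 44.4% and 36.4% of all regions.

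Broad regions carried much of the signal. Of the 570 regions, 21 were at least 5 kb wide, 3 in the Vmn1r and 18 in the Vmn2r windows. They held 23.3% and 23.5% of the windows' CPM, against 18.1% for such regions in the whole table. None overlapped a coding receptor gene: 1 lies in the pseudogene Vmn2r-ps23, 6 overlap another gene and 14 lie between genes. All 3 in the Vmn1r windows were negative and 3 of 18 in the Vmn2r windows were positive, against 28.9% positive among the 1622 such regions of the table. Their median was -0.10 in the Vmn1r and -0.11 in the Vmn2r windows, against -0.08.

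Examples from 5 of the windows follow, the strongest region of the proximal chromosome 6 window having been given above. On chromosome 6 the widest distal region (90308161 to 90318935) covers Chst13, a carbohydrate sulfotransferase gene, and had 189 CPM and -0.08 (derived SE 0.07) in the authors' deposited table. On chromosome 3 the strongest region (64040789 to 64052221, 11432 bp) ends 813 bp from Vmn2r-ps3 and had 208 CPM and -0.11 (derived SE 0.06) in the authors' deposited table. On chromosome 17 a region of 12348 bp over Gm41538 (18958689 to 18971037) had 197 CPM and -0.15 (derived SE 0.07, FDR 0.881) in the authors' deposited table. These 3 carry small negative values. The chromosome 7 region of highest CPM went the other way: at 86007267 to 86016689, 7997 bp from Vmn2r-ps80, the authors' deposited table gave 209 CPM and 0.15 (derived SE 0.07, FDR 0.835). On chromosome 5 the widest region (109598062 to 109605788, 7726 bp) lies in Vmn2r-ps23 and had 149 CPM and -0.09 (derived SE 0.08) in the authors' deposited table. The densest region of that window per kb (109933391 to 109939425, at Gm15446) had 150 CPM, 24.8 CPM per kb and -0.08 (derived SE 0.08) in the authors' deposited table. None of these was called.

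The fold change was also read by position relative to genes. The median was -0.06 at the 95 regions over receptor genes (95% interval -0.10 to 0.05), -0.05 at the 383 between genes (-0.08 to -0.01) and 0.07 at the 92 over other genes only (-0.01 to 0.10). These intervals overlap, those of regions between genes and over other genes by a very small margin. The regions over other genes had a lower median CPM, 8.30, against 10.9 over receptor genes and 10.8 between genes.

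Receptor genes elsewhere in the genome are set beside these windows. The Vmn2r regions counted here include the 4 in the part of Vmn2r79 past the end of the chromosome 7 window. Outside the 6 windows, 119 regions lay within 5 kb of a Vmn1r gene, of which 3 were called, with a median of 0.04, and 162 within 5 kb of a Vmn2r gene, of which 1 was called, with a median of -0.05, where 0.281% of all regions were called. Unadjusted p was below 0.05 at 19 of the Vmn1r regions (16.0%, 17 of them positive) and 10 of the Vmn2r regions (6.17%, 1 positive), against 4.74% of all regions. Without chromosomes 11, 13 and 16 the numbers were 77 regions with 1 call and a median of -0.07 for Vmn1r, and 153 regions with 0 calls and a median of -0.05 for Vmn2r. Of the 3 Vmn1r calls, 1 thus lies outside those chromosomes. There p was below 0.05 at 5.19% of the Vmn1r and 5.23% of the Vmn2r regions, beside 4.74% of all regions. The share of all regions still includes those chromosomes, and on chromosome 11 it was 15.6%.

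Other genes of the vomeronasal system gave 0 called regions within 5 kb in each of 4 lists. The lists hold 3 to 21 regions, and with 0.281% of all regions called, 0 is near the background for so few. Beside their other counts, p was below 0.05 at 4.74% of all regions, and 49.2% of all regions were positive. The formyl peptide receptors, chemoreceptors whose genes adjoin the Vmn2r cluster on chromosome 17, had 5 regions at 2 of the 7 genes found, Fpr3 and Fpr-rs3. Their log2 fold changes in the authors' deposited table ran from -0.24 to 0.26. Genes of signal transduction had 21 regions at 4 of 10 genes, with 1 at p below 0.05 and 6 positive. That list includes Gnao1, with 3 regions from -0.19 to 0.14 in the authors' deposited table. The class Ib MHC genes that are expressed with V2Rs had 3 regions at 3 of 9 genes, with 1 at p below 0.05. Regulators of these neurons had 19 regions at 7 of 11 genes, 15 of them positive and 4 at p below 0.05. Of these, 6 regions lie in Ebf1 on chromosome 11, where the median of all 3218 regions was 0.28; outside that chromosome 9 of 13 were positive and 2 had p below 0.05.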

How the data were processed

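Regions, log2 fold changes (reference genotype not stated), average log2 CPM (counts scaled to library size), p-values and FDR come from the authors' deposited table, per the file headers. Build mm10 and the tools edgeR (no version), Bowtie2 (2.2.6), bedtools (2.25.0) and HOMER (4.8) stand in the submitters' processing notes, without roles. Which libraries entered, how regions were defined, whether input was used and how reads matching several gene copies were counted: all of this is not given in the sources used. Adjusting the deposited p-values by Benjamini-Hochberg gave the deposited FDR to within 3.2e-05. The table holds 0 columns of single libraries, so depth per library and replicate error are unknown, and the planned fit by library was not run.

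From these values, a standard error was derived as the absolute log2 fold change over the normal deviate of its p-value where that was at least 1 (151 of 570 regions), and otherwise taken as the median error in the region's class of log2 CPM (width 0.5). The derivation was tested on simulated data. Medians have exact order-statistic 95% intervals and shares Wilson intervals, which cover counting error over regions only. Genes and promoters are those of RefSeq (GRCm38.p6, the assembly behind mm10), and a region counts as near a gene within 5 kb. Regions were named where called, at p below 0.01, or for the highest CPM, CPM per kb, width or fold change of a window, and not all such regions are printed. Promoters were to be shown where a region holds the gene's start, which gave 0. The windows, gene lists and members were chosen with earlier results of these data known. Alternatives changed the threshold, adjustment, filters, windows and centring. Analyses used Python 3.11.15, numpy 2.4.6, pandas 2.3.3, scipy 1.17.1 and statsmodels 0.14.6.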

Additional observations from a re-analysis of the deposited data

How the results depend on the processing

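The single call, on chromosome 5, was kept at an FDR threshold of 0.01, under filters on signal or width, without chromosomes 11 and 16, with windows shortened by 250 kb at each end and near receptor genes only. It fell to 0 under Holm adjustment and without the chromosome 5 window, and the count was 16 at an unadjusted p below 0.05. Leaving out other windows did not alter it.

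With only regions of log2 CPM 4 or more, the median log2 fold change was -0.1122 in the Vmn1r and -0.0849 in the Vmn2r windows, the positive share 20.0% and 32.3%, the median log2 CPM 4.91 and 4.85 and the median width 2012 bp and 2249.5 bp. With only regions of at least 1000 bp, the Vmn2r median was -0.0724, the positive share 36.0% and 35.1%, the median log2 CPM 4.60 and 4.69 and the median width 1695 bp and 2029 bp. With only regions within 5 kb of a gene of the family, the Vmn1r median width was 1106 bp, and the Vmn2r median was -0.0693 with 40.0% positive. The filters on signal and width keep the strong, wide regions by construction; for the filter on distance the cause was not tested. The other 61 values left the count of calls at 1 or stayed inside the 95% interval of the value reported. Over the alternatives, the median ranged from -0.11 to 0.03 in the Vmn1r windows and from -0.08 to -0.01 in the Vmn2r windows. The Vmn1r median, close to 0, changed sign with the centring and with the window left out, and is no evidence of a direction.

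No paired analysis was possible because the deposited table holds no values of single libraries. For the same reason the replicate block and leaving out each replicate were not run.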
